A study of Mus musculus with 2 samples.

Results

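The AP-1 and Egr immediate early factors are transcription factors whose genes are switched on quickly by growth factors, serum and stress, before any new protein is made. They were described here by every probe set of the deposited table whose single gene symbol in the platform annotation is Fos, Fosb, Fosl1, Fosl2, Jun, Junb, Jund, Egr1, Egr2 or Egr3. All 10 genes were found, on 16 of 34945 such probe sets, or 10 of 18193 genes. No probe set with several symbols carried any of the 10 names.

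Proteins of the Fos and Jun families join through leucine zippers to form AP-1, which binds DNA as a dimer. Jun proteins can pair with each other, while Fos proteins need a Jun partner. Egr proteins bind GC-rich sites through zinc fingers and are held in check by the corepressors Nab1 and Nab2. In many cells the Fos, Junb and Egr genes respond to the MAP kinase cascade through serum response factor (SRF) and its Ets-family ternary complex partners, and in muscle lineages AP-1 activity is associated with proliferating myoblasts.

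Expression was read in C2C12, a mouse myoblast cell line that fuses into myotubes in low serum. The cells carried the hairpin shLrrfip1a, against Lrrfip1, or the control hairpin, spelled shLCUI in the sample labels and shLUCI in the design text. Both groups were grown in 10% fetal bovine serum, differentiated for 5 days in 2% horse serum, and washed before lysis in Trizol, and RNA was read on Affymetrix mouse arrays. The labels do not say whether a line was 1 clone or a pool, and the time since the last medium change is not given in the sources used here. Each group has 1 array, so no difference below has a replicate check, an SD or a p-value. In these bulk samples, fewer cells of a type and less RNA per cell cannot be told apart.

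Each probe set combines several short probes against 1 stretch of a transcript, and the authors deposited its intensity on a linear scale. A difference is log2(intensity + 16) on the shLrrfip1a array minus that on the control array, so the added 16 shrinks the differences of dim probe sets. Where a gene has several probe sets, the brightest over both arrays stands for it, and counts cover the 11448 genes whose level lay above the median of all non-control probe sets (an intensity of 52.4). Intensities of different probe sets were not compared with each other. The array medians were 53.5 and 51.4 for shLrrfip1a and control, and 92.6% of the 11448 genes differed by less than 0.5. Lrrfip1, the targeted gene, read 62.2% to 70.6% of the control on its 3 probe sets.

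The 3 Egr genes read lower in the shLrrfip1a array, and the 7 Fos and Jun genes stayed close to the control. Egr2 had the largest difference (-1.33), followed by Egr1 (-0.87) and Egr3 (-0.83). The Fos and Jun genes lay between -0.34 for Fosl1 and 0.28 for Jun. Of the 9 genes above the level filter, 1 was at least 2-fold lower and 0 at least 2-fold higher. Of all 11448 genes, 0.69% were at least 2-fold lower and 0.664% at least 2-fold higher. With a size of 1.5-fold the members lower were the 3 Egr genes, against 2.46% of all genes.

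**Figure D1:**
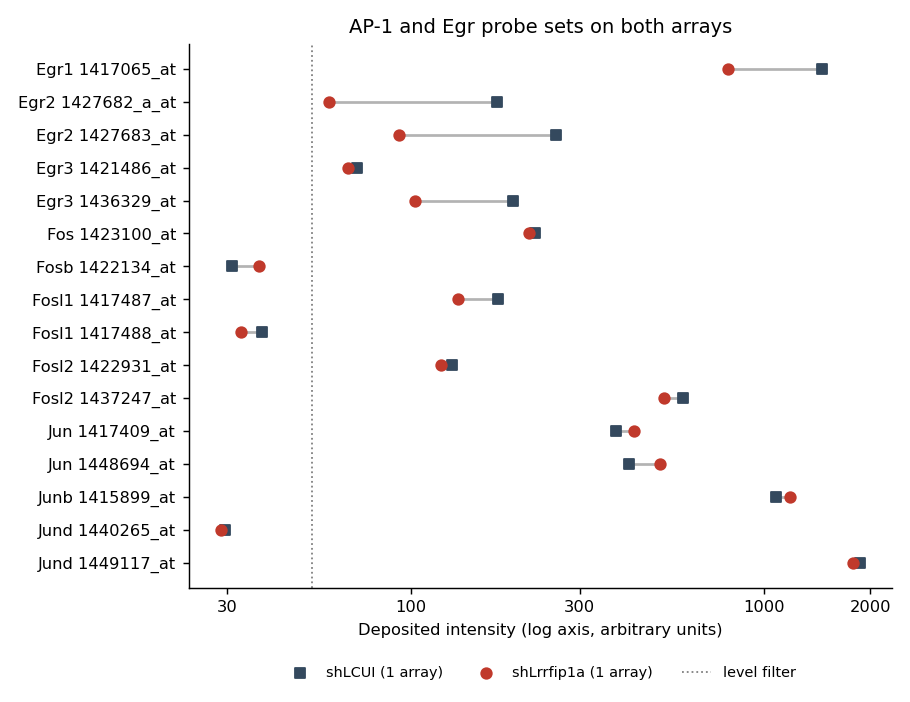
Deposited intensity (log axis, arbitrary units) of the 16 AP-1 and Egr probe sets, with a circle for the shLrrfip1a array and a square for the control array; each marker is 1 array and the dotted line is the level filter at 52.4. The long gaps are those of Egr1, both Egr2 probe sets and 1 Egr3 probe set, and Fosb and the dimmer Fosl1 and Jund probe sets lie left of the filter.

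Egr2, also called Krox20, is a zinc finger factor known for its part in myelination and hindbrain patterning. Its brighter probe set (1427683_at) read 92.5 on the shLrrfip1a array and 257 on the control array, or 36.1% of the control. The other probe set (1427682_a_at), whose suffix marks probes shared by transcripts of 1 gene, read 58.4 and 175, or 33.4%. Both probe sets were thus lower in shLrrfip1a by a similar factor, with differences of -1.33 and -1.36. Of the 11448 genes, 37 had a lower difference than Egr2, which is 0.323%. The size depends on the pseudocount because the shLrrfip1a values are dim: with 1 and 64 in place of 16 the differences were -1.46 and -1.03 on the brighter probe set and -1.57 and -0.96 on the other.

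Egr1, the most studied member of the family and a common marker of MAP kinase activity, has 1 probe set. It read 789 on the shLrrfip1a array and 1460 on the control array, or 54.0% of the control. The difference of -0.87 hardly moved with pseudocounts of 1 and 64 (-0.89 and -0.84), since both values are far above the added constant. Egr1 thus stayed just under 2-fold, although only 1.06% of genes lay further down.

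Egr3, a target of the same signals that acts in muscle spindle development, gave unequal readings on its 2 probe sets. On 1436329_at it read 102 in shLrrfip1a and 194 in the control (-0.83), and on 1421486_at it read 66.1 and 70.3 (-0.07). The 2 probe sets share the direction but not the size, and their mean difference was -0.45. Where each lies on the Egr3 transcript was not analysed here. All 5 Egr probe sets were lower in shLrrfip1a, but a lower value common to 3 genes read on the same pair of arrays is not a replicate.

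**Figure D2:**
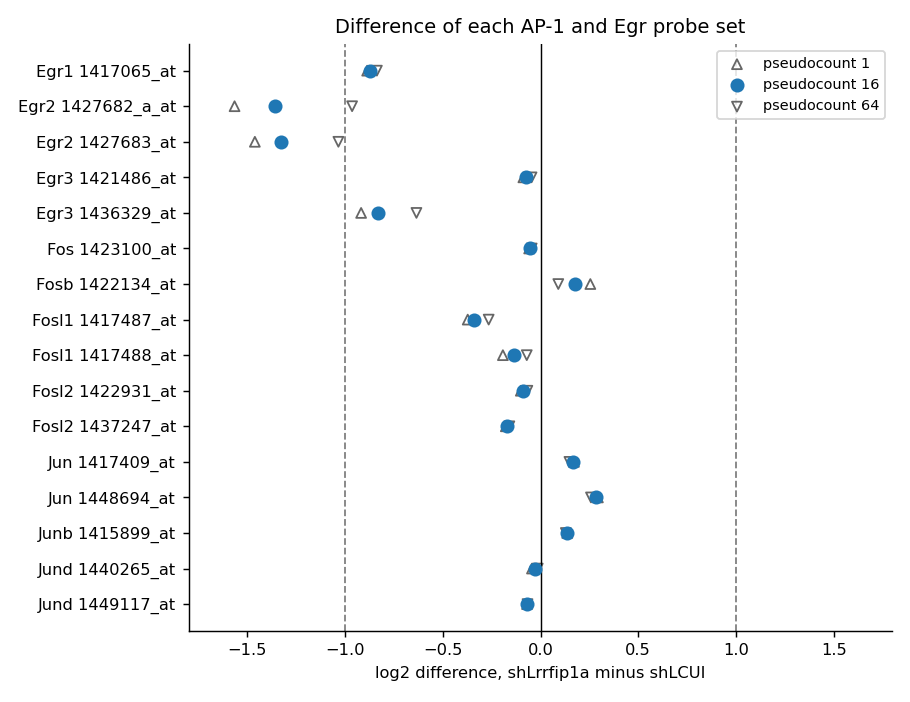
Difference (shLrrfip1a minus control, log2 scale, 1 array each) of each AP-1 and Egr probe set with a pseudocount of 16 (filled circles), 1 or 64 (open triangles); dashed lines mark the 2-fold size. Both Egr2 probe sets lie past the lower line with pseudocounts of 16 and 1 and close to it with 64 (-0.96 and -1.03). Egr1 and both Egr3 probe sets lie between it and 0, with the dimmer Egr3 probe set at -0.07. The 11 Fos and Jun probe sets lie between -0.34 and 0.28 at a pseudocount of 16.

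Fos, the founding member of its family and a classical marker of recent stimulation, read 216 in shLrrfip1a and 225 in the control, a difference of -0.05 on its 1 probe set. The Fos value was thus nearly level while Egr1 and Egr2 were lower on the same arrays. Fosb was dim on both arrays (37.1 and 31.0) and was the 1 member below the level filter. Its difference of 0.18 is therefore not counted. The Fos-related antigens Fosl1 and Fosl2, which lack the transactivation domain of Fos, were both a little lower. Fosl1 read 136 and 177 on its brighter probe set (-0.34) and 33.0 and 37.8 on its dim one (-0.14). Fosl2 read 522 and 591 on its brighter probe set (-0.17) and 121 and 130 on the other (-0.09). Of all genes, 8.79% had a lower difference than Fosl1 and 22.2% a lower one than Fosl2.

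Among the Jun genes, Jun itself, the strongest activator of the family, was the highest of the 10 genes. Its probe sets read 508 against 414 (0.28) and 428 against 380 (0.16). Both were higher in shLrrfip1a, and 12.1% of genes had a higher difference than the brighter one. Junb, which opposes Jun at many promoters, read 1189 against 1082 (0.13). Jund, the member least dependent on stimulation, read 1790 against 1878 (-0.07), and its dim probe set 28.8 against 29.7 (-0.03). Over the 11 Fos and Jun probe sets, of which 8 lay above the filter, 7 were lower and 4 higher. Of the 11, 0 reached the 2-fold size, which 0.575% of all probe sets above the filter reached downward and 0.621% upward.

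The median difference of all 10 genes was -0.12, that of the 7 Fos and Jun genes -0.05 and that of the 3 Egr genes -0.87, while the median of all 11448 genes was 0.00. With 1 array a group no test of the gap between the Egr and the Fos and Jun genes could be made. Spike-in controls are foreign RNAs of bacteria and a phage, and 38 of their 42 probe sets were lower in shLrrfip1a. Scaling the arrays to them moved the median of all genes to 0.17. Egr2, Egr1 and Egr3 then stood at -1.17, -0.69 and -0.67. Fos, Fosl2 and Jund turned from slightly lower to slightly higher (0.12, 0.01 and 0.12), so their direction depends on the scaling. Jun and Junb rose to 0.46 and 0.32, so how close they lie to the control depends on it too.

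**Figure D3:**
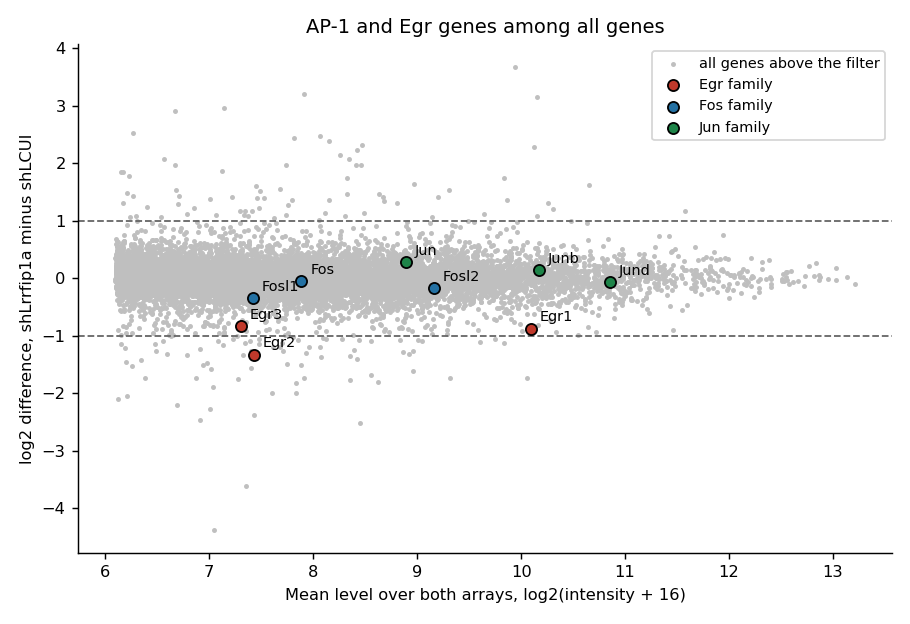
Difference (shLrrfip1a minus control, log2 scale) against mean level over both arrays for the 11448 genes above the filter (grey), with Egr genes in red, Fos genes in blue and Jun genes in green; dashed lines mark the 2-fold size. Egr2 lies below the lower line at -1.33, Egr1 and Egr3 lie at the lower edge of the cloud, and the 6 Fos and Jun genes above the filter lie inside it.

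The DNA just upstream of the members' transcription starts was searched for sites of the factors that act on immediate early genes. RefSeq promoter windows (GRCm38.p6) matched 7 of the 10 genes, namely Egr2, Fos, Fosb, Fosl2, Jun, Junb and Jund, with 11 windows because Egr2 has 5 annotated starts. Fosl1, Egr1 and Egr3 were not matched. The windows shown hold the 250 bases before the start, 5′ to 3′ on the gene's strand. Capitals mark matches on either strand to the CArG box, the SRF site with 6 A or T bases between CC and GG, to the half-site TGACG of CREB and ATF factors, and to the Ets core CCGGAA. The Egr2 windows are shown as those of the gene with the largest difference, and Fos and Junb as stimulus-responsive genes that stayed level.
Egr2 at chr10:67537619-67537868, plus strand: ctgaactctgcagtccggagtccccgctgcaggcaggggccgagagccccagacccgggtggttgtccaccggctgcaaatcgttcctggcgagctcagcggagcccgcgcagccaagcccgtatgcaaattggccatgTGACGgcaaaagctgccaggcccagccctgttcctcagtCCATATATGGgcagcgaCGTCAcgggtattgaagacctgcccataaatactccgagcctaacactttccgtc
Egr2 at chr10:67537316-67537565, plus strand: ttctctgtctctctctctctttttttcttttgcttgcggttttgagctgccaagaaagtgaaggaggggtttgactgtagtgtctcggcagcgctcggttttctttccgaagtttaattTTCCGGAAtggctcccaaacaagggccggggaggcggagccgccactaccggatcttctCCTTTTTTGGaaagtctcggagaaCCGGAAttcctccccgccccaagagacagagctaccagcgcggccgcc
Fos at chr12:85473640-85473889, plus strand: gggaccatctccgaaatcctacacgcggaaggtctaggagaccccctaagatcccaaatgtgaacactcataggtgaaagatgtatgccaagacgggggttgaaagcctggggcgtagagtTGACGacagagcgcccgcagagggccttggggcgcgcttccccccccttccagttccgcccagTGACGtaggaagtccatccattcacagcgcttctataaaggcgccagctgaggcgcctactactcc
Junb at chr8:84978749-84978998, minus strand: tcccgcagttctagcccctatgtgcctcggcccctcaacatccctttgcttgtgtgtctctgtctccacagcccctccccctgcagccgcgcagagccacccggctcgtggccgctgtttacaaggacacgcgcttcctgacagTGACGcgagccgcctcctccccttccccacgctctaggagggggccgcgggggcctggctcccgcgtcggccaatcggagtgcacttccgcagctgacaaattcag

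A CArG box match lay in 4 of the 5 Egr2 windows and in 0 of the other 6, against 1.47% of all 32851 windows of this length. The 4 hold 2 different matches, CCATATATGG in 3 overlapping windows and CCTTTTTTGG in the other. In the Egr2 windows printed above, both matches begin 72 bases before the start. TGACG was found in windows of Egr2, Fos, Fosb and Junb, against 17.8% of all windows, and CCGGAA in 1 Egr2 window, against 3952 of the 32851. The Egr site GCGGGGGCG lay in the windows of Fosb and Fosl2, against 2.57% of all windows. The Egr site GCGTGGGCG (0.536% of all windows) and the AP-1 site TGACTCA (4.46%) were not in any of the 11 windows. A match describes the letters only, and sites beyond 250 bases were not searched, so a 0 does not mean that a gene lacks the site. Egr2 was the only Egr gene with windows, so the Egr genes could not be set against the Fos and Jun genes. Whether a site goes with a lower or a level value was not tested.

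The wider pathway was described by 8 lists chosen by function, which together name 149 further genes. Of these, 137 had a probe set with 1 symbol and 116 lay above the level filter. Of the 116, 5 were at least 2-fold lower and 0 at least 2-fold higher, or 4.31% in either direction against 1.35% of all genes. The 5 were Ier3, Ptgs2, Il6, Hbegf and Ccnd2. The lists were chosen with earlier results of these data known, and Il6 and Ccnd2 were among those results, so this share is not independent evidence. The median over the 116 genes was -0.05, and 58.6% of them were lower, against 49.3% of all genes. With a pseudocount of 64 the 5 lower genes became 3, and the 0 higher genes became 2 with spike-in scaling and 1 when each gene's probe sets were averaged. Spike-in scaling, which moved the median of all genes to 0.17, turned the median of the 116 to 0.11 and those of the kinases, the AP-1 targets and the Egr targets to 0.11, 0.10 and 0.15.

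Of 27 other immediate early genes above the filter, 20 were lower (74.1%, against 49.3% of all genes) and 7 higher. Their median was -0.07 and became 0.09 with spike-in scaling. At least 2-fold lower were 2 of the 27, against 0.69% of all genes. Ier3, a stress response gene induced by NF-kB and MAP kinase signals, read 195 in shLrrfip1a and 658 in the control (-1.68). Ptgs2, the inducible prostaglandin synthase, read 203 and 501 (-1.24), with -0.77 on its other probe set. Errfi1, a feedback inhibitor of the EGF receptor, read 267 and 499 (-0.86), with -0.61 on its other probe set. Those 3 genes, named for the largest differences of the list, were lower in shLrrfip1a, as the Egr genes were. The 7 higher genes of the list reached at most 0.46. Chosen after their values were seen, Ier2 (539 against 502), Myc (297 against 305), Ccn1 (1057 against 1063) and Nr4a1 (96.1 against 102) stood with Fos and Junb among the level ones.

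The kinase cascade and its brakes held 0 genes past 2-fold, against 1.35% of all genes. At that share, lists this short would often hold 0. Of 13 MAP kinase phosphatases and Sprouty or Spred inhibitors above the filter, 9 were lower and 4 higher (69.2% lower, against 49.3% of all genes). Their median was -0.28, the furthest from 0 of the 8 lists. It was -0.10 with spike-in scaling and -0.18 when each gene's probe sets were averaged. The ERK phosphatase Dusp6 (129 against 181, -0.44), Dusp14 (261 against 356, -0.42) and Dusp5 (73.5 against 101, -0.39) had the largest differences. Of 16 kinases above the filter 10 were lower (62.5%, against 49.3% of all genes), with a median of -0.05. The largest differences among kinases were those of Map2k1, which encodes the ERK kinase MEK1 (757 against 1018, -0.42), Rps6ka3 (378 against 454, -0.25) and Mapkapk2 (302 against 353, -0.22). For 6 of the 28 kinases on the list no probe set with a single symbol was used here.

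Factors that act upstream of or beside the members stayed under 2-fold, as did all but 1.35% of all genes. Of 10 SRF, Ets and MRTF factors 6 were higher and 4 lower (median 0.06), where 49.3% of all genes were lower. Ets2, an Ets factor activated by MAP kinases, had the largest difference (843 against 1304, -0.62, and -0.59 on another probe set above the filter). The ternary complex factor Elk3 was lower (651 against 793, -0.28, and -0.49 on another probe set above the filter). Elk1 was higher on its brightest probe set (160 against 129, 0.27), but read -0.09 and -0.04 on its other, dim ones. Of 16 other leucine zipper partners 8 were higher and 8 lower (median 0.02), led by Maff, a small Maf protein (67.9 against 118, -0.68), Batf2 (70.6 against 42.3, 0.57) and Jdp2, a repressive Jun partner (1206 against 851, 0.49, but 0.08 on its dim probe set). Of 4 Egr partners above the filter, the largest differences were those of Sp1 (846 against 741, 0.19), the corepressor Nab2 (231 against 246, -0.09) and Sp3 (430 against 409, 0.07), and the median was 0.07. Nab2 is itself a known target of Egr proteins, and its value became 0.09 with spike-in scaling. Whether the activity of Egr proteins differed was not tested.

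Genes known as AP-1 or Egr targets differed in both directions. Of 19 AP-1 targets above the filter 2 were at least 2-fold lower, against 0.69% of all genes. In direction, 10 were lower (52.6%, against 49.3% of all genes) and 9 higher (median -0.09). That median was -0.19 without a level filter and also with only probe sets that carry no s, x or a suffix, and 0.01 with the filter at the 75th percentile. Il6, an inflammatory cytokine that muscle cells secrete, read 93.5 against 247 (-1.26). Hbegf, a membrane-anchored ligand of the EGF receptor, read 300 against 648 (-1.07, and -1.03 on its other probe set). Both stayed under 2-fold with a pseudocount of 64 (-0.98 and -0.97), and Hbegf with spike-in scaling (-0.89). The stromelysin gene Mmp3 came next (112 against 229, -0.94, and -1.03 with a pseudocount of 1).

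Of 13 Egr targets above the filter 8 were lower (61.5%, against 49.3% of all genes) and 5 higher (median -0.03). At least 2-fold lower was 1, against 0.69% of all genes. Ccnd2, which encodes cyclin D2, read 304 against 756 (-1.27), and its 5 other probe sets above the filter lay between -1.23 and -0.87. The mean over all Ccnd2 probe sets was -0.95, short of 2-fold. The growth factor gene Igf2 read 635 against 329 (0.92, 0.43 on its dim probe set, and 1.10 with spike-in scaling), so it was higher in shLrrfip1a, and the collagen gene Col1a1 read 1384 against 1854 (-0.42, and -0.51 on its other probe set). The targets were listed from general knowledge, and none was tied to Egr or AP-1 binding in these cells.

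**Figure D4:**
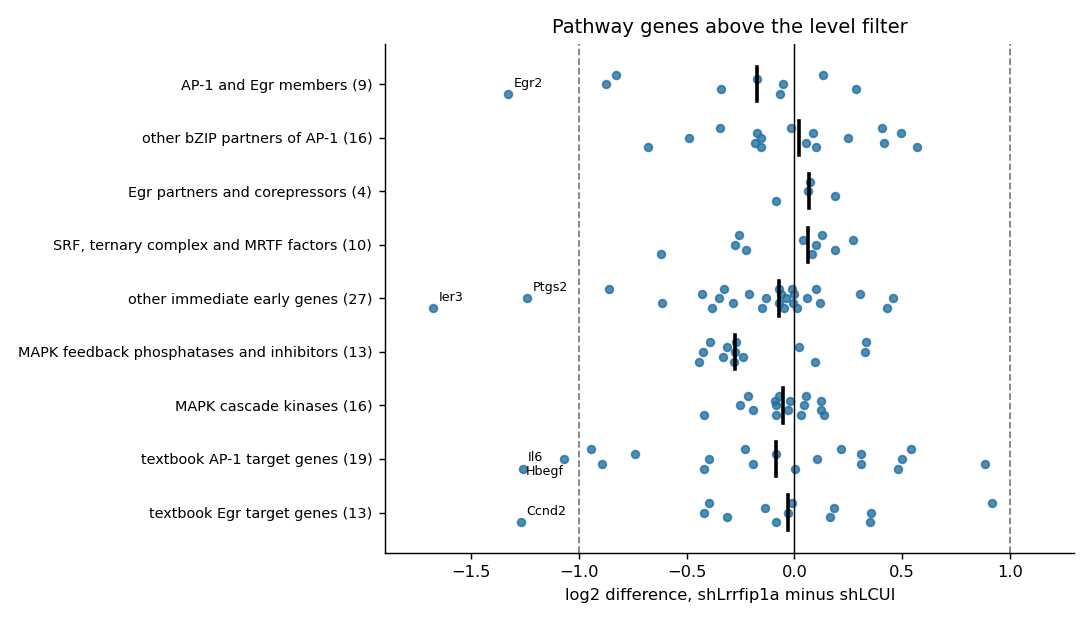
Difference (shLrrfip1a minus control, log2 scale, 1 array each) of each gene above the level filter in the AP-1 and Egr group and in 8 related lists, with the number of genes in parentheses; each point is a gene, its height within a row has no meaning, and black bars are medians. The 6 named points past the left dashed line are at least 2-fold lower, 0 points lie past the right one, and the lowest median is that of the MAP kinase feedback genes (-0.28).

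Marker genes were read on the same arrays. Of 11 myotube markers 10 lay above the filter, 7 lower and 3 higher in shLrrfip1a (median -0.10), where 49.3% of all genes were lower. All 10 stayed under 2-fold, as did all but 1.35% of all genes. The largest differences were those of Myog (-0.38), Ckm (0.38, and 0.06 on its other probe set) and Ttn (0.31, and 0.29 to 0.42 on 4 others above the filter). Summed intensities over the 11, in which bright probe sets weigh most, were 20664 in shLrrfip1a and 22232 in the control. Of 6 measured markers of undifferentiated or dividing myoblasts, 4 lay above the filter and all 4 were lower, as were 49.3% of all genes. They ran from -0.83 for Myf5 to -0.17 for Cdk1, which is named only as the end of the range. Summed intensities over the 6 were 2667 and 3268. Top2a among them was -0.32, but -0.03 with its probe sets averaged. Of its probe sets without an s, x or a suffix, the brighter read -0.06 and the dimmer, below the filter, 0.28. The satellite cell factor Pax7, below the filter and named after its values were seen, read 22.6 against 70.4 (-1.16). Of 8 fibroblast markers 6 lay above the filter, 3 higher and 3 lower, with a median of -0.15. The sums over the 8 were 15437 and 13473, and the proteoglycan gene Dcn alone read 3497 against 260. Without Dcn, left out after its values were seen, the sums were 11941 and 13212, lower in shLrrfip1a. Postn (-0.47), Col1a1 (-0.42) and Pdgfra (-0.35) were the lower ones, and Pdgfra is named only to complete them. The Pdgfra value is that of its brightest probe set. Another Pdgfra probe set was higher in shLrrfip1a, and the remaining, dimmer probe set was slightly lower. Adipocyte markers were dim, with 0 of 5 above the filter and sums of 111 and 106. Macrophage markers had 3 of 6 above the filter (sums 410 and 354), endothelial markers 1 of 5 (205 and 120, with Kdr at 118 against 48.0) and osteoblast and chondrocyte markers 1 of 5 (574 and 484). As a sign of RNA integrity, the 3-prime control probe sets exceeded the 5-prime ones by 0.52 and 0.74 (log2) for beta-actin in shLrrfip1a and control, and by -0.04 and 0.00 for Gapdh. The part of these differences in the lower Egr values was not tested.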

How the data were processed

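The authors deposited an intensity for every probe set of both arrays, on a linear scale with a floor of 1. Per the labels' protocols, biotinylated cRNA was made from 6 ug of total RNA. The method of probe summary and scaling was not given in the sources used here, nor were detection calls. No probe set can therefore be called absent, and the number of arrays limits the precision.

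Of 45101 probe sets, 34958 had 1 gene symbol in the platform annotation, 932 several and 9211 none. The 64 Affymetrix controls were left out. A pseudocount of 16 was added before log2, without rescaling. Python 3.11.15, statsmodels 0.14.6, numpy 2.4.6 and pandas 2.3.3 were used, and the counting was tested on simulated data. No test was run, since each group has 1 array. The alternatives were pseudocounts of 1 and 64, median, quantile, loess and spike-in scaling, other choices of probe set, other level filters, and thresholds of 1.5-fold and 3-fold.

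The members and lists were chosen with earlier results of these data known. Named were all member probe sets and, of each related list, the genes past 2-fold and the 3 with the largest difference above the filter. Genes named outside this rule are marked. RefSeq sequences are of GRCm38.p6.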

Additional observations from a re-analysis of the deposited data

How the results depend on the processing

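Leaving out an array would leave no comparison, so the variation between cultures is unknown. No paired analysis was possible because the groups hold a single array each. The count of members at least 2-fold lower was 1 and became 3 at 1.5-fold and 0 at 3-fold, and it stayed at 1, namely Egr2, under the 10 alternatives of pseudocount, scaling, probe set choice and filter. The members above the filter had a median difference of -0.17, which became 0.0073 with spike-in scaling, where the median of all genes became 0.17 and the genes at least 2-fold higher and lower numbered 121 and 54 in place of 76 and 79. The lower genes numbered 44 with a pseudocount of 64. With the 75th percentile filter the counts were 48 and 46, and Egr3 was no longer among the 8 members kept. Over the alternatives Egr2 ranged from -1.46 to -1.03, Egr1 from -0.92 to -0.69 and Egr3 from -0.92 to -0.45.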

Other observations

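Some genes of the pathway lists fell outside the rule for named genes and were picked after their values were seen. Klf10, a Krüppel-like factor induced by TGF-beta, read 314 in shLrrfip1a and 489 in the control (-0.61). Timp1, an inhibitor of matrix metalloproteinases, read 2048 and 3820 (-0.89). The angiogenic factor gene Vegfa read 278 and 475 (-0.74, and -0.51 on its other probe set). In the other direction, the growth factor gene Fgf7 read 912 and 486 (0.89), and 1.13, past 2-fold, on its other probe set. The metallothionein genes Mt1 (3003 and 2059, 0.54, and 0.41 on its other probe set) and Mt2 (3375 and 2383, 0.50) were both higher. The probe sets of Mt1 and Mt2 can share signal because the genes are closely similar. Each value comes from 1 array per group and has no replicate check.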
